A study of Homo sapiens with 4 samples.

Results

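The genes described here are 49 human genes of DNA double-strand break repair, the Fanconi anaemia pathway and the checkpoint kinases that answer to DNA damage. They were taken by name, as a list chosen with earlier results of these data known. All 49 were found among the 20263 genes of a count table from MDA-MB-231 cells, an established human triple-negative breast cancer line. The cells had been kept for 24 h with Rib_CA, which the series title calls a derivative of the CDK4/6 inhibitor ribociclib, or with the solvent DMSO. Messenger RNA was sequenced from 2 Rib_CA libraries and 2 DMSO libraries. All 4 come from this single line with no stated genetic change, and the dose of Rib_CA is not given in the sources used here. The labels leave unsaid if the replicates are separate cultures, and the p-values therefore describe a spread between libraries that may be technical.

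A break across both DNA strands is sensed by the MRE11-RAD50-NBN complex and by the kinase ATM, while ATR, with TOPBP1, answers to exposed single-stranded DNA. Breaks are joined directly by the Ku proteins and DNA-PK, or their ends are cut back and copied from the sister chromatid with the help of BRCA1, PALB2 and BRCA2, which is possible in S and G2 phase. The Fanconi proteins mark crosslinks between strands by attaching ubiquitin to FANCD2 and FANCI. Many genes of recombination are known E2F targets and are transcribed more in cycling cells. Loss of BRCA1 or BRCA2 function sensitises breast cancer cells to PARP inhibitors and platinum drugs.

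The libraries held 38865103 and 37772266 counts for Rib_CA and 34774542 and 37754168 for DMSO. Transcripts of the mitochondrial genome took 5.78% and 3.13% of the counts in Rib_CA 1 and 2, against 8.68% and 21.7% in DMSO 1 and 2, so DMSO 2 stood apart. The mesenchymal gene VIM lay between 3587 and 4221 CPM in the 4 libraries, while the oestrogen receptor gene ESR1 did not exceed 0.663 CPM and the epithelial cadherin gene CDH1 did not exceed 0.0766 CPM. ERBB2, a receptor gene amplified in other breast tumours, lay between 58 and 87.1 CPM. The luminal factor gene GATA3 was detected unevenly, at 11.3 and 3.04 CPM in Rib_CA 1 and 2, against 9.75 and 21.7 CPM in DMSO 1 and 2. CPM here means counts per 1000000 counts of a library, scaled by TMM factors that align the bulk of the genes between libraries. CD3E of T cells and DCN of fibroblasts had 0 counts in every library, under a floor of 3 counts that corresponds to 0.0697 to 0.0911 CPM and covers counting error only. Other markers of those and of endothelial cells were detected at low levels, with COL1A1 of fibroblasts between 4.09 and 8.05 CPM, PDGFRB between 0.674 and 2.88, PTPRC of leukocytes up to 0.634 and PECAM1 of endothelial cells up to 1.18 CPM.

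After Rib_CA, 16 of the 49 repair genes fell and none rose. The largest decreases were in the ATR activator gene TOPBP1 (5.09-fold lower), the Fanconi translocase gene FANCM (4.97-fold), the recombination mediator gene BRCA2 (4.65-fold), the resection factor gene RBBP8 (4.59-fold) and the helicase gene BLM (4.52-fold). The other genes that fell were ATR, BRCA1, RAD50, POLQ, PRKDC, ATM, BRIP1, EXO1, XRCC5, FANCI and NBN, from 4.13-fold to 2.70-fold lower. In edgeR's quasi-likelihood test 699 of all 13667 genes tested fell (5.11%) and 275 rose (2.01%) at an adjusted p under 0.05, 7.13% in all; the adjustment limits the expected share of false calls. All 49 repair genes were among those tested, and 32.7% of them fell. Their median log2 fold change, the log2 ratio of Rib_CA over DMSO, was -0.98, against 0.03 over all genes tested. Fold changes were negative for 38 of the 49, against 48.1% of all genes. At an unadjusted p under 0.05, 27 were lower and 2 higher, against 14.7% and 13.7% of all genes. Both Rib_CA libraries lay below both DMSO libraries for 34 of the 49 (28.4% of all genes tested), above them for 5 (30.4% of all genes), and the groups overlapped for 10. Because the list was chosen with earlier results of these data known, these shares describe it and do not test it. In a bulk library, fewer cells of a type and less RNA per cell cannot be told apart.

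The count moved with single libraries and with the scaling. It was 3 lower without DMSO 1 (0.975% of all genes lower), 11 without DMSO 2 (2.53%), 27 lower and 1 higher without Rib_CA 1 (11.7% and 8.84% of all genes), and 24 lower and 1 higher without Rib_CA 2 (11.6% and 8.22%). The member higher was FANCF without Rib_CA 1 and FANCE without Rib_CA 2. DESeq2 called 25 members lower and 1, FANCE, higher (10.7% and 7.25% of all genes). TOPBP1, BRCA1 and RBBP8 were the members called in all 4 fits with a library left out. With total-count scaling the median over all genes moved by 0.20 on the log2 scale, and 8 members were lower and none higher, with 328 of all genes lower (2.4%) and 260 higher (1.9%). Of all calls, 28.2% were higher with TMM and 44.2% with that scaling. After a correction of each library for transcript GC content and length, no gene of the 13667 passed, the members included, while all 16 genes that fell kept a negative fold change and 39 of the 49 were negative, against 48.3% of all genes. The median over the 49 was then -0.50, against 0.03 over all genes. At an unadjusted p under 0.05, 16 members were then lower, against 11.8% of all genes. With that correction and the replicate number as a block, 1 member, TOPBP1, was lower (0.615% of all genes).

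**Figure D1:**
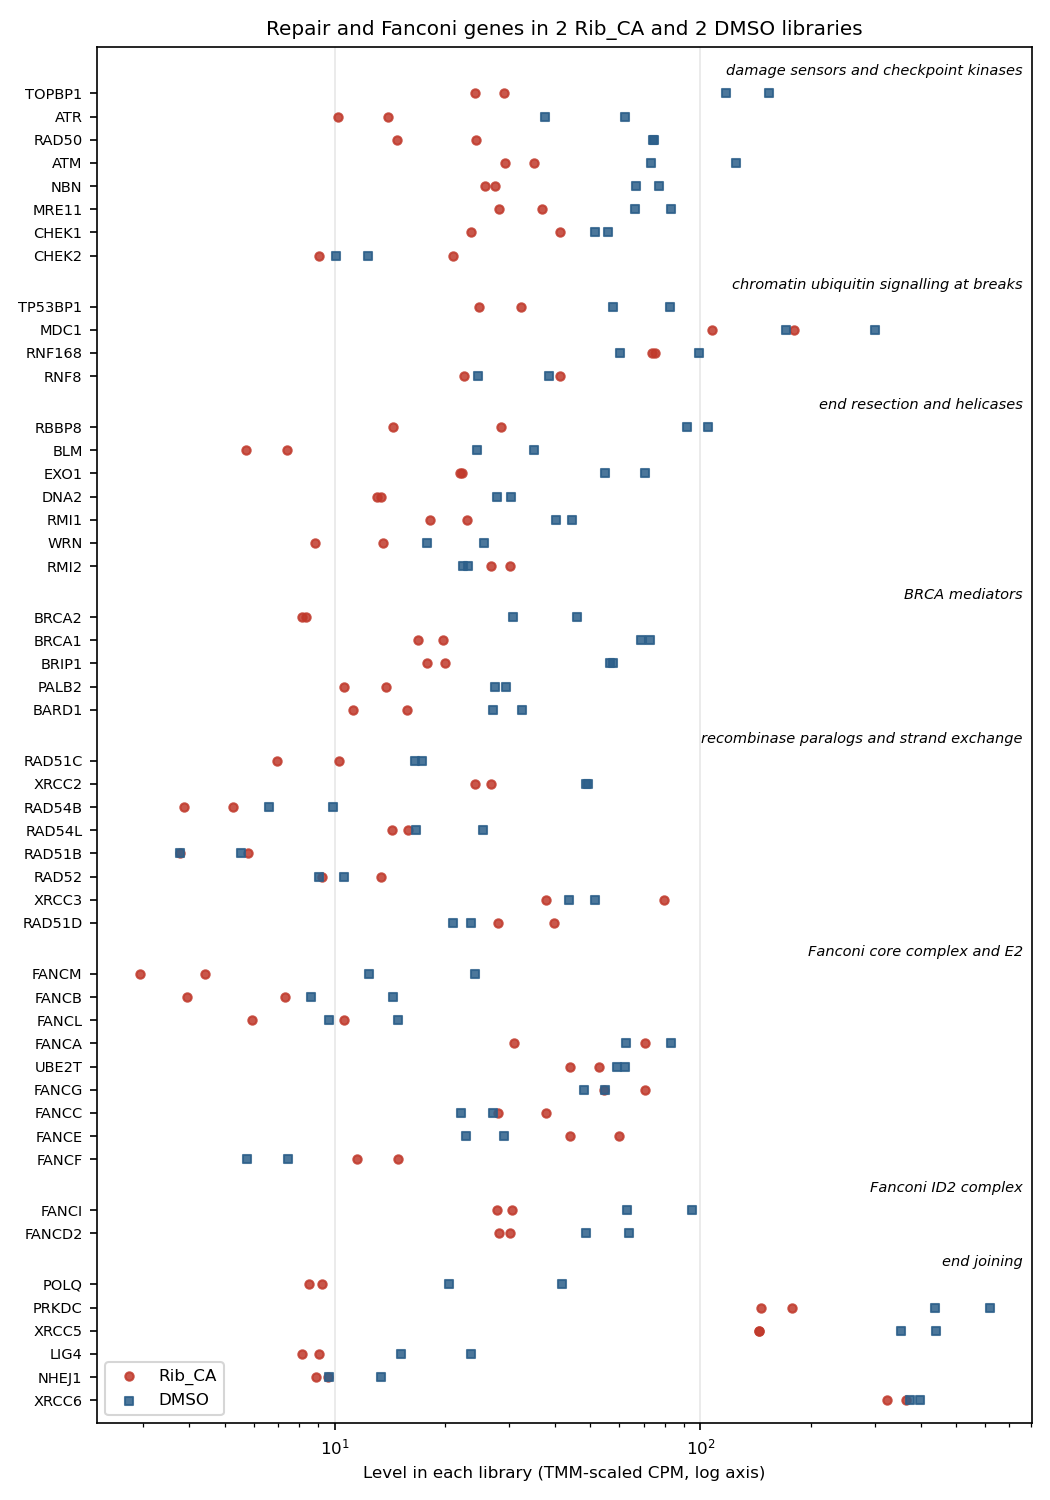
TMM-scaled CPM (log axis) of the 49 genes in the 2 Rib_CA libraries (circles) and the 2 DMSO libraries (squares), by role and, within a role, from the most negative fold change down. The Rib_CA points lie left of the DMSO points for 34 genes, right of them for 5, and mixed with them for 10.

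The promoter windows of RefSeq (build GRCh38.p14, 250 bases before to 50 after a transcription start) were searched for letters recognised by cell cycle factors. Shared control of the 16 genes that fell was not tested. The letters were TTTNNCGC of E2F factors, TTTGAA of the cell cycle homology region and CCAAT of NF-Y, each on both strands and with overlaps allowed. Only exact matches were counted, so a window without a match may still hold a site in other letters. For 41 of the 49 members the table held a window, and the window nearest to the start of the longest coding transcript was used. The E2F letters stood in 2 of the 12 members that fell, in 7 of 29 that did not pass and in 10.4% of 10899 tested genes with a window. The TTTGAA letters stood in 3 of 12, 3 of 29 and 9.62%, and CCAAT in 5 of 12, 14 of 29 and 36.4%. The windows that follow are those of the 4 members that fell with the smallest p, TOPBP1 (chr3:133661892-133662191, minus strand), BRCA1 (chr17:43125315-43125614, minus strand), BRCA2 (chr13:32315258-32315557, plus strand) and BLM (chr15:90717096-90717395, plus strand), and of the 2 members with the largest p, RNF8 (chr6:37353733-37354032, plus strand) and RAD51B (chr14:67823291-67823590, plus strand). Each runs 5′ to 3′ on the gene's strand, and capitals mark the letters searched for. TOPBP1 holds 1 match, of the E2F letters, BRCA1 holds 1 CCAAT match, BLM holds 3 CCAAT matches and RNF8 1, while none of the letters occur in the BRCA2 and RAD51B windows. The RAD51B window belongs to a start 3733 bases from the start of that gene's longest coding transcript and lies in AT-rich sequence, with 32.3% GC against 53.3 to 63.3% in the other 5.
TOPBP1: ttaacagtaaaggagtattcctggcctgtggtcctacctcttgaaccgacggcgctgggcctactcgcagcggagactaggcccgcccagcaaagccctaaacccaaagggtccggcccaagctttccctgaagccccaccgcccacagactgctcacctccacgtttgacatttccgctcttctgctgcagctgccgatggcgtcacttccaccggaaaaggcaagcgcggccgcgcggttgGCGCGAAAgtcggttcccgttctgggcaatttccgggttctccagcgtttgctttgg
BRCA1: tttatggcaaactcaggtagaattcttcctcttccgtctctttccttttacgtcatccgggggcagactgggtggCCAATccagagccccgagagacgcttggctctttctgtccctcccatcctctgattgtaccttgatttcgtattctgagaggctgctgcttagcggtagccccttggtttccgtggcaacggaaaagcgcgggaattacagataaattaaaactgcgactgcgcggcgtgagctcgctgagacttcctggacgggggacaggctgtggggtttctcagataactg
BRCA2: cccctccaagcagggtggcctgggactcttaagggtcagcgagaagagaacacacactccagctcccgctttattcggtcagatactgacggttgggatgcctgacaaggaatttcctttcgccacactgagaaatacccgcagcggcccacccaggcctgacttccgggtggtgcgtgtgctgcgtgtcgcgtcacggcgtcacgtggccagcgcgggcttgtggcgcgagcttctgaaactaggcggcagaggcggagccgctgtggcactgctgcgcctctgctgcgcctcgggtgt
BLM: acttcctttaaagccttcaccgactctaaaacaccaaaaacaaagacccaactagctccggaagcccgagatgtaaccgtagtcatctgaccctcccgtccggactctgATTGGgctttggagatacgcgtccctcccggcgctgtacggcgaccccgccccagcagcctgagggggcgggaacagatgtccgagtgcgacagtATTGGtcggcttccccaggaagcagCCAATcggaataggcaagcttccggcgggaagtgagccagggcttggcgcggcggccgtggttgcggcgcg
RNF8: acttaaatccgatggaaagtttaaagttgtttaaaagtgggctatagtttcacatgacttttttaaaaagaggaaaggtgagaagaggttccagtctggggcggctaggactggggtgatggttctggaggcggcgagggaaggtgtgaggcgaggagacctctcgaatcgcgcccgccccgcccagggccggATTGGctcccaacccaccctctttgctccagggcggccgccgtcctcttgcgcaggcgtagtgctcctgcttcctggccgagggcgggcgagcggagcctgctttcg
RAD51B: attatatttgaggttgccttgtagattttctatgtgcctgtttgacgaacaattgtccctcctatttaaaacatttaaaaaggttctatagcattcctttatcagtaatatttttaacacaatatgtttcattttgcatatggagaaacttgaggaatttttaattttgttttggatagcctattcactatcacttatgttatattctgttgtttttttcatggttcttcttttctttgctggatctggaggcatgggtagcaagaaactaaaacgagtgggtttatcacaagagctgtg

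Among the damage sensors and checkpoint kinases, 5 of 8 genes fell, against 5.11% of all genes tested. TOPBP1, the scaffold that activates ATR and whose promoter is shown above, lay at 29.1 and 24.2 CPM in Rib_CA 1 and 2, against 154 and 117 CPM in DMSO 1 and 2. It was 5.09-fold lower (log2 fold change -2.35 ± 0.29 SE, adjusted p = 0.0285). ATR, the kinase of replication stress, lay at 14 and 10.2 CPM in Rib_CA 1 and 2, against 62.2 and 37.7 CPM in DMSO 1 and 2. The decrease in ATR was 4.13-fold (log2 fold change -2.04 ± 0.36 SE, adjusted p = 0.0301), and the DMSO libraries differed from each other by more than the Rib_CA libraries did. ATM, the kinase of double-strand breaks, lay at 29.1 and 35 CPM in Rib_CA 1 and 2, against 125 and 73.4 CPM in DMSO 1 and 2. ATM was 3.09-fold lower (log2 fold change -1.63 ± 0.34 SE, adjusted p = 0.0417), with the groups apart. Of the complex that holds broken ends, RAD50 lay at 24.4 and 14.8 CPM in Rib_CA 1 and 2, against 74.4 and 74.8 CPM in DMSO 1 and 2. RAD50, the long coiled-coil ATPase, was 3.81-fold lower (log2 fold change -1.93 ± 0.33 SE, adjusted p = 0.0296), and shares 79.7% of its exonic bases with another annotated gene on the same strand. NBN, the subunit that binds ATM, lay at 27.4 and 25.8 CPM in Rib_CA 1 and 2, against 77.1 and 66.6 CPM in DMSO 1 and 2. Its decrease was 2.70-fold (log2 fold change -1.43 ± 0.26 SE, adjusted p = 0.0325). MRE11, the nuclease of the complex, missed the threshold at a log2 ratio of -1.20 ± 0.29 (adjusted p = 0.0562), although both Rib_CA libraries were lower. Neither gene of the effector kinases passed. CHEK1 lay at 23.5 and 41.3 CPM in Rib_CA 1 and 2, against 55.9 and 51.4 CPM in DMSO 1 and 2 (log2 ratio -0.73 ± 0.34, adjusted p = 0.216), and CHEK2 had a log2 ratio of 0.43 ± 0.45 (adjusted p = 0.575). CHEK2 lay at 9.04 and 21.1 CPM in Rib_CA 1 and 2, against 12.3 and 10.1 CPM in DMSO 1 and 2, so that Rib_CA 2 alone was high. CHEK2 has near-identical pseudogene copies of its later exons, and how reads that fit several places were counted is not given in the sources used here. Without DMSO 1 the calls of ATR, ATM, RAD50 and NBN were lost, and that of NBN also without DMSO 2. With 1 library left out, ATM ranged from 2.30-fold to 3.90-fold lower, RAD50 from 3.06-fold to 5.20-fold lower and ATR from 3.12-fold to 5.15-fold lower. After the GC and length correction the log2 fold changes were -1.75 for TOPBP1, -1.14 for ATR, -1.11 for RAD50, -0.74 for NBN and -0.50 for ATM.

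None of the 4 genes of ubiquitin signalling on chromatin around a break passed. TP53BP1, which shields ends from resection, came closest with a log2 ratio of -1.30 ± 0.31 (adjusted p = 0.0562). It lay at 24.8 and 32.3 CPM in Rib_CA 1 and 2, against 82.8 and 57.5 CPM in DMSO 1 and 2, and shares 28.7% of its exonic bases with TUBGCP4 on the opposite strand. MDC1, the reader of phosphorylated H2AX, had a log2 ratio of -0.71 ± 0.39 (adjusted p = 0.274) and overlapping groups. The ubiquitin ligase genes RNF8 and RNF168 had log2 ratios of 0.02 ± 0.39 and -0.10 ± 0.31, adjusted p = 0.981 and 0.873. For RNF8 the sign turned with DESeq2's size factors, and for RNF168 with total-count scaling.

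Of 7 genes of end resection and DNA unwinding, 3 fell, against 5.11% of all genes tested. RBBP8, which encodes CtIP and starts resection with MRE11, lay at 28.5 and 14.4 CPM in Rib_CA 1 and 2, against 105 and 92.1 CPM in DMSO 1 and 2. It was 4.59-fold lower (log2 fold change -2.20 ± 0.38 SE, adjusted p = 0.0297; 3.46-fold to 7.02-fold lower with 1 library left out). BLM, the helicase mutated in Bloom syndrome, lay at 7.43 and 5.74 CPM in Rib_CA 1 and 2, against 35 and 24.4 CPM in DMSO 1 and 2. BLM was 4.52-fold lower (log2 fold change -2.18 ± 0.34 SE, adjusted p = 0.0286), with both Rib_CA values far under the lower DMSO value. EXO1, an exonuclease of long-range resection, lay at 22 and 22.3 CPM in Rib_CA 1 and 2, against 70.3 and 54.7 CPM in DMSO 1 and 2. The decrease in EXO1 was 2.83-fold (log2 fold change -1.50 ± 0.28 SE, adjusted p = 0.0330), and the Rib_CA libraries nearly coincided. DNA2, the other long-range nuclease, had a log2 ratio of -1.14 ± 0.28 (adjusted p = 0.0567), and the helicase gene WRN one of -0.95 ± 0.36 (adjusted p = 0.141). Neither scaffold gene of BLM passed: RMI1 had a log2 ratio of -1.04 ± 0.28 (adjusted p = 0.0742) and RMI2 one of 0.32 ± 0.27 (adjusted p = 0.475). BLM lost its call without DMSO 1, and EXO1 on leaving out either DMSO library. Corrected for GC content and length, the log2 fold changes were -1.59 for RBBP8, -1.53 for BLM and -1.06 for EXO1.

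In the BRCA module, 3 of 5 genes fell, against 5.11% of all genes tested. Both libraries of Rib_CA lay below both of DMSO for all 5, against 28.4% of all genes. BRCA1, the ubiquitin ligase that promotes resection and loads PALB2, lay at 19.8 and 16.9 CPM in Rib_CA 1 and 2, against 68.9 and 72.6 CPM in DMSO 1 and 2. With replicates close together in both groups, BRCA1 was 3.85-fold lower (log2 fold change -1.95 ± 0.27 SE, adjusted p = 0.0285; 3.58-fold to 4.32-fold lower with 1 library left out). BRCA2, which loads the recombinase on single-stranded DNA, lay at 8.32 and 8.15 CPM in Rib_CA 1 and 2, against 45.9 and 30.8 CPM in DMSO 1 and 2. BRCA2 was 4.65-fold lower (log2 fold change -2.22 ± 0.32 SE, adjusted p = 0.0285), and its Rib_CA libraries were nearly equal. BRIP1, a helicase that binds BRCA1 and is also Fanconi protein J, lay at 17.9 and 19.98 CPM in Rib_CA 1 and 2, against 57.6 and 56.6 CPM in DMSO 1 and 2. Its decrease was 3.02-fold (log2 fold change -1.59 ± 0.27 SE, adjusted p = 0.0293). PALB2, the bridge between BRCA1 and BRCA2, had a log2 ratio of -1.22 ± 0.30 (adjusted p = 0.0572), and BARD1, the partner of BRCA1, one of -1.14 ± 0.31 (adjusted p = 0.0745). BRCA2 lost its call without DMSO 1 and BRIP1 on leaving out either DMSO library. The corrected log2 fold changes were -1.24 for BRCA1, -1.10 for BRCA2 and -0.86 for BRIP1.

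The recombinase paralogs and strand-exchange genes had no member that passed. Their log2 fold changes were negative for 4 of 8, near the 48.1% of all genes tested. XRCC2 lay at 26.8 and 24.2 CPM in Rib_CA 1 and 2, against 49.1 and 48.6 CPM in DMSO 1 and 2 (log2 fold change -0.94 ± 0.26, adjusted p = 0.0783). RAD51C lay at 10.3 and 6.95 CPM in Rib_CA 1 and 2, against 17.3 and 16.6 CPM in DMSO 1 and 2 (log2 fold change -0.98 ± 0.33, adjusted p = 0.119). Both paralog genes, whose products help to assemble the recombinase filament, had their Rib_CA libraries below their DMSO libraries. RAD51D, another paralog, had the opposite sign at 0.60 ± 0.30 (adjusted p = 0.241), with both Rib_CA libraries above both DMSO libraries. RAD51B lay at 3.78 and 5.79 CPM in Rib_CA 1 and 2, against 5.54 and 3.77 CPM in DMSO 1 and 2, with the groups interleaved (log2 fold change 0.04 ± 0.43, adjusted p = 0.965). XRCC3 had a log2 ratio of 0.30 ± 0.39 (adjusted p = 0.664), and shares 76.7% of its exonic bases with KLC1 on the opposite strand, so that reads there could be told apart only with strand. The translocase genes RAD54L and RAD54B had log2 ratios of -0.48 ± 0.32 and -0.86 ± 0.40, and the annealing factor gene RAD52 had one of 0.20 ± 0.34, adjusted p = 0.376, 0.217 and 0.751. RAD54B shares 59.1% of its exonic bases with FSBP on the same strand, and RAD54L 25.1% with LRRC41 on the opposite strand.

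Of the 9 genes of the core complex and its ubiquitin-conjugating enzyme, FANCM alone fell, against 5.11% of all genes tested. FANCM, the translocase that brings the complex to stalled forks, lay at 4.42 and 2.93 CPM in Rib_CA 1 and 2, against 24.1 and 12.4 CPM in DMSO 1 and 2. It was 4.97-fold lower (log2 fold change -2.31 ± 0.45 SE, adjusted p = 0.0366), a call lost without DMSO 1, and 3.39-fold to 6.58-fold lower with 1 library left out. FANCE and FANCF, adaptor subunits of the core, had the highest fold changes of the 49 genes. FANCE lay at 59.96 and 44 CPM in Rib_CA 1 and 2, against 29 and 22.9 CPM in DMSO 1 and 2 (log2 fold change 1.001 ± 0.30, adjusted p = 0.0917). FANCF lay at 11.5 and 14.9 CPM in Rib_CA 1 and 2, against 7.44 and 5.77 CPM in DMSO 1 and 2 (log2 fold change 1.001 ± 0.34, adjusted p = 0.122). Neither passed, although both Rib_CA libraries were above both DMSO libraries in each; FANCF shares 11.3% of its exonic bases with GAS2 on the opposite strand. FANCC, another subunit of the core, also had its groups apart in this direction, with a log2 ratio of 0.42 ± 0.30 (adjusted p = 0.403). The scaffold gene FANCG had one of 0.28 ± 0.27 and FANCA one of -0.52 ± 0.42, adjusted p = 0.539 and 0.456. Without Rib_CA 1, FANCA was called lower at -1.27 (adjusted p = 0.0158), and it ranged from -1.27 to -0.05 with 1 library left out. FANCA shares 23.6% of its exonic bases with ZNF276 on the opposite strand. FANCB had one of -1.04 ± 0.45 and FANCL, the ubiquitin ligase subunit, one of -0.57 ± 0.42, adjusted p = 0.193 and 0.415. FANCL shares 18.7% of its exonic bases with VRK2 on the opposite strand. UBE2T, the conjugating enzyme that works with FANCL, had one of -0.33 ± 0.26 (adjusted p = 0.448). Of the pair that receives the ubiquitin, FANCI lay at 27.7 and 30.6 CPM in Rib_CA 1 and 2, against 95.1 and 62.9 CPM in DMSO 1 and 2. FANCI was 2.71-fold lower (log2 fold change -1.44 ± 0.31 SE, adjusted p = 0.0432), a call lost on leaving out either DMSO library. FANCD2, its partner, had a log2 ratio of -0.95 ± 0.28 (adjusted p = 0.0874), with both Rib_CA libraries below both DMSO libraries. FANCD2 has pseudogene copies, so its count carries the same doubt as that of CHEK2. The corrected log2 fold changes were -1.40 for FANCM, -0.97 for FANCI, 0.58 for FANCE and 1.18 for FANCF, and that of FANCG turned to -0.12.

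Among the 6 end-joining genes, 3 fell, against 5.11% of all genes tested. All 6 had both Rib_CA libraries below both DMSO libraries, against 28.4% of all genes. PRKDC, which encodes the catalytic subunit of DNA-PK, lay at 178 and 146 CPM in Rib_CA 1 and 2, against 617 and 439 CPM in DMSO 1 and 2. It was 3.26-fold lower (log2 fold change -1.70 ± 0.30 SE, adjusted p = 0.0298). XRCC5, which encodes Ku80, lay at 145 and 145 CPM in Rib_CA 1 and 2, against 441 and 354 CPM in DMSO 1 and 2. XRCC5 was 2.75-fold lower (log2 fold change -1.46 ± 0.27 SE, adjusted p = 0.0320), with nearly equal Rib_CA libraries. XRCC6, which encodes the other Ku subunit, Ku70, lay at 324 and 364 CPM in Rib_CA 1 and 2, against 397 and 375 CPM in DMSO 1 and 2. Its log2 fold change was -0.17 ± 0.25 (adjusted p = 0.716), and the sign turned with total-count scaling. POLQ, the polymerase of microhomology-mediated joining, lay at 8.53 and 9.22 CPM in Rib_CA 1 and 2, against 41.9 and 20.6 CPM in DMSO 1 and 2. POLQ was 3.52-fold lower (log2 fold change -1.82 ± 0.40 SE, adjusted p = 0.0470), and its DMSO libraries differed widely from each other. The ligase gene LIG4 had a log2 ratio of -1.17 ± 0.34 (adjusted p = 0.0859), and NHEJ1, whose product XLF aids that ligase, had one of -0.32 ± 0.33 (adjusted p = 0.569). NHEJ1 shares 65.4% of its exonic bases with another annotated gene on the same strand. PRKDC and POLQ lost their calls without DMSO 1, POLQ also in limma-voom, and XRCC5 was not called when DMSO 1 or DMSO 2 was left out. POLQ ranged from 2.32-fold to 4.73-fold lower with 1 library left out. The corrected log2 fold changes were -1.12 for XRCC5, -0.92 for POLQ, -0.91 for PRKDC and -0.35 for XRCC6. Per kilobase of the longest coding transcript, XRCC6 was the highest of the 49 at 127 CPM per kb in Rib_CA and 143 in DMSO. The scale compares genes only roughly, because the transcript expressed may be shorter than the longest. On that scale XRCC5 lay at 38.5 and 106, UBE2T at 53.3 and 67, BRCA1 at 2.52 and 9.73, and FANCM at 0.516 and 2.57 CPM per kb in Rib_CA and DMSO.

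**Figure D2:**
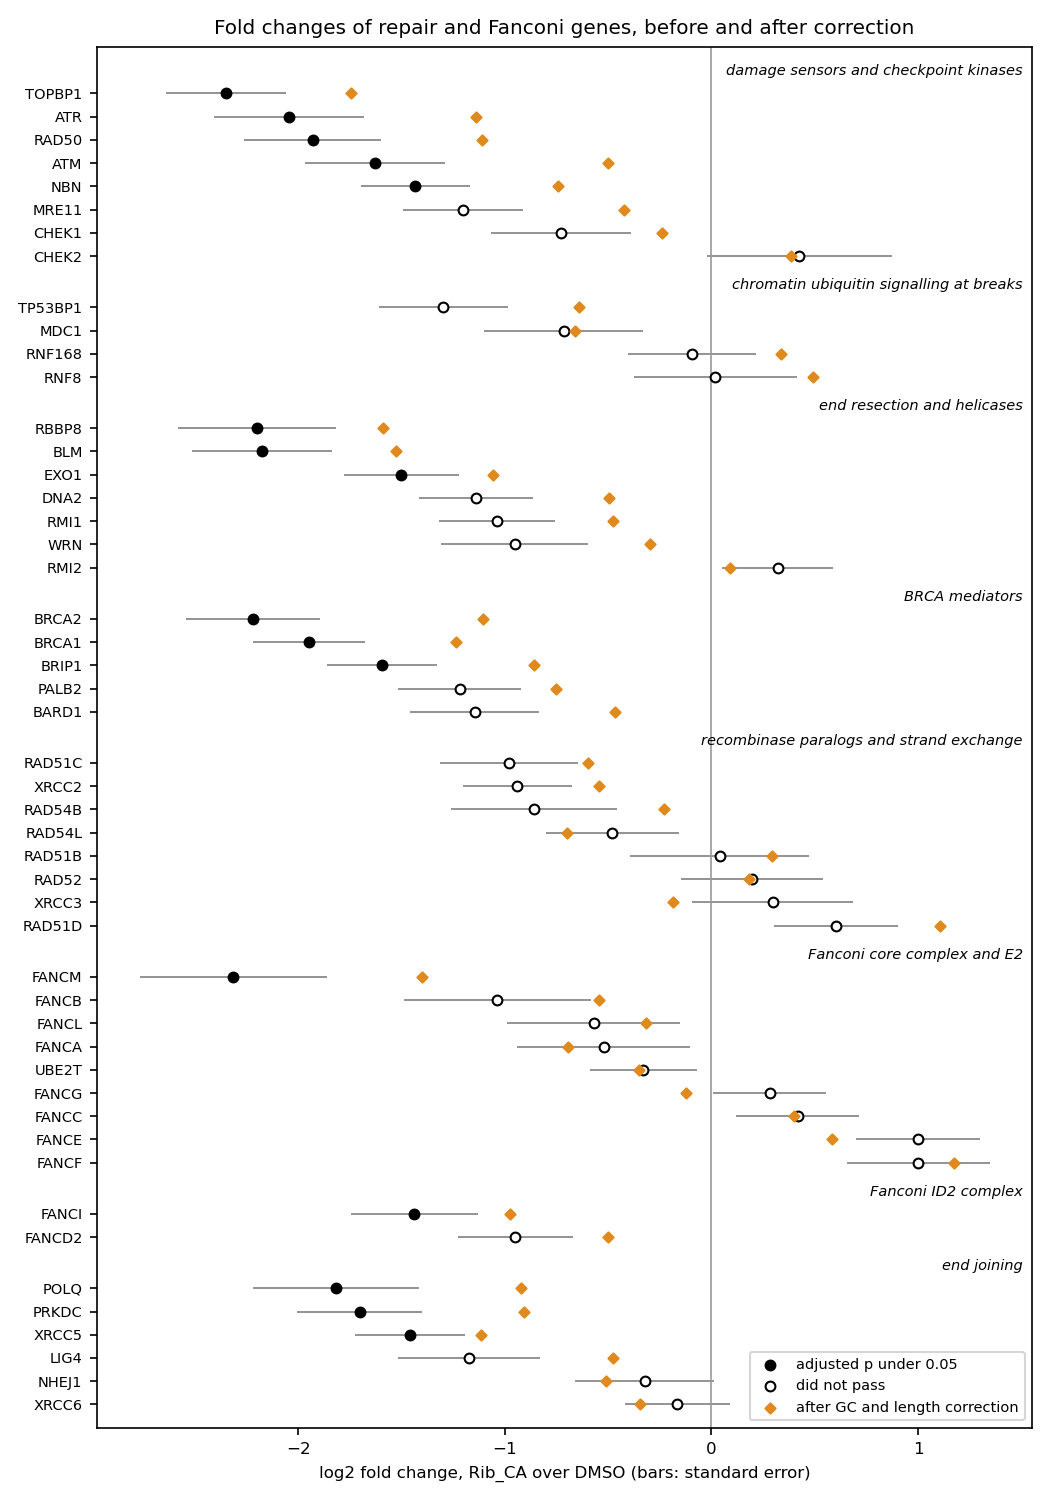
Log2 fold change, Rib_CA over DMSO, of the 49 genes by role, with standard errors as bars, filled circles for an adjusted p under 0.05 and open circles for the rest. Diamonds give the value once GC content and length of the transcripts are corrected for in every library: the 16 filled circles lie between -2.35 and -1.43, and every one of their diamonds lies closer to 0.

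The median transcript of the genes that fell was longer and more AT-rich than that of the genes that did not pass. The longest coding transcript had a median of 6632 bases in the 16 that fell, 3108 in the 33 that did not pass and 3372 in all genes tested. Their median GC content was 41.2%, against 44% in those that did not pass and 48.9% in all genes, and their median gene span was 98.8 kb, against 43 and 32.9 kb. Of the 21 members with a transcript of at least 5000 bases 11 fell, and 12.1% of all genes of that length did. From 3000 to under 5000 bases, 5 of 16 members fell, against 4.45% of all genes. Under 3000 bases, 0 of 12 members fell, against 1.26% of all genes. Of the 8 members with at least 50% GC, 0 fell, against 0.124%. Among genes with at least 5000 bases and under 45% GC, 10 of 16 members fell against 20.4% of 1939 genes, with a median log2 fold change of -1.72 in the members and -0.72 in all such genes. After the GC and length correction those medians were -0.89 and 0.01. In genes that span at least 120 kb, 6 of 10 members fell, against 12%. Across the 49 genes Spearman's rho of the log2 fold change was -0.60 with transcript length and 0.63 with GC content, and across 13651 tested genes it was -0.36 and 0.48. These genes share the 4 libraries and are not independent replicates. The correction smooths over differences that include the treatment's own, so a change that runs along length or GC content is removed with any bias. Whether length and base composition account for the decrease was not tested. The members of at least 5000 bases that did not pass were TP53BP1, RAD51D, MDC1, MRE11, RNF8, BARD1, FANCA, RNF168, FANCD2 and WRN. RAD51D and RNF8 had a positive log2 fold change and the others a negative one.

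**Figure D3:**
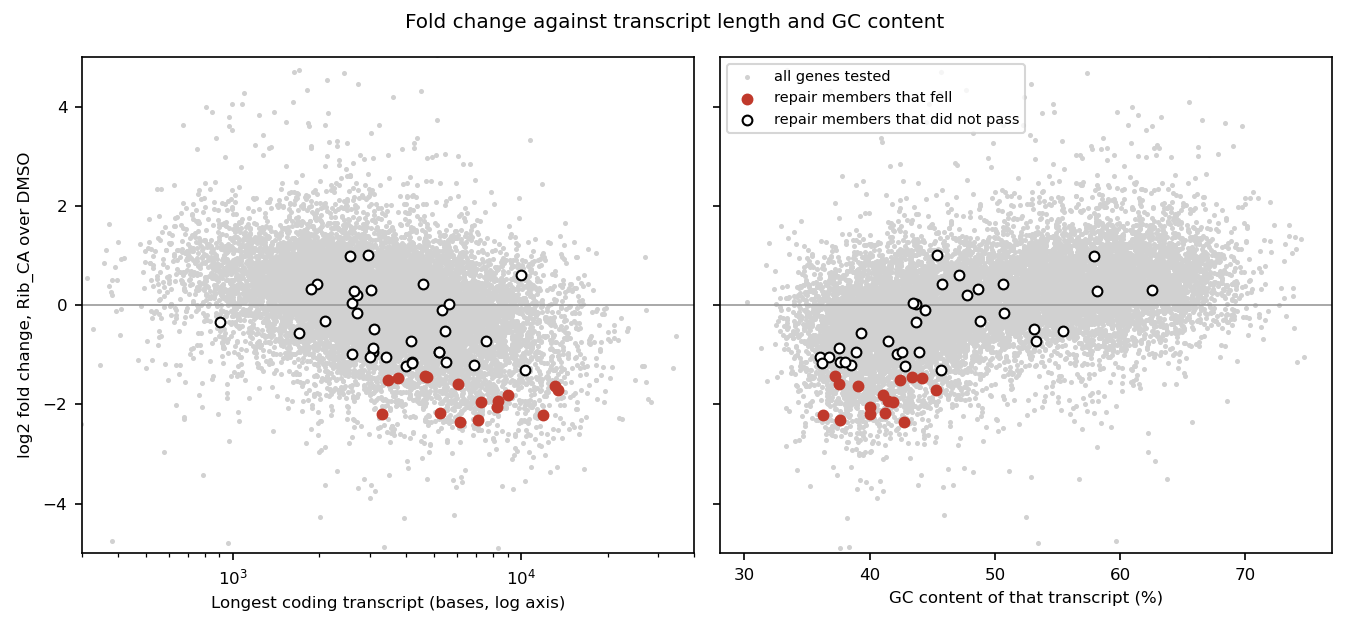
Log2 fold change, Rib_CA over DMSO, against the length of the longest coding transcript (left, log axis) and its GC content (right) for all genes tested (grey), the 16 repair genes that fell (red) and the 33 that did not pass (open). The red points sit among the longer and more AT-rich transcripts; 24 genes with a log2 fold change beyond 5 in size and 4 genes with lengths outside 300 to 40000 bases lie off the axes.

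The ratio of 2 genes' counts within a library is the same under any scaling of the library. For 15 pairs chosen after their values were seen, with the gene that fell more usually placed on top, the ratio is given as a description. The Ku ratio XRCC5:XRCC6 was 0.447 and 0.397 in Rib_CA 1 and 2, against 1.11 and 0.944 in DMSO 1 and 2. PRKDC relative to XRCC6 was 0.550 and 0.401 in Rib_CA 1 and 2, against 1.55 and 1.17 in DMSO 1 and 2. Both ratios were lower in each Rib_CA library than in each DMSO library. BLM:RMI2 was 0.246 and 0.214 in Rib_CA 1 and 2, against 1.51 and 1.09 in DMSO 1 and 2, and BLM:RMI1 had means of 0.329 ± 0.113 in Rib_CA and 0.698 ± 0.128 in DMSO (SD, n = 2 each). RAD51C:RAD51D, both of the same paralog complex, was 0.258 and 0.248 in Rib_CA 1 and 2, against 0.824 and 0.706 in DMSO 1 and 2. ATM:CHEK2 was 3.23 and 1.66 in Rib_CA 1 and 2, against 10.1 and 7.26 in DMSO 1 and 2. BRCA1:BARD1 was 1.77 and 1.07 in Rib_CA 1 and 2, against 2.12 and 2.67 in DMSO 1 and 2, and FANCI:FANCD2 was 0.987 and 1.02 in Rib_CA 1 and 2, against 1.49 and 1.29 in DMSO 1 and 2. NBN:MRE11 was 0.975 and 0.700 in Rib_CA 1 and 2, against 0.927 and 1.005 in DMSO 1 and 2, with overlapping groups, so no shift beyond the spread of the libraries was seen for this pair. No ratio was tested, because the pairs were chosen with their values known. Partners differ in length and GC content, so these ratios are open to the same dependence as the fold changes.

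**Figure D4:**
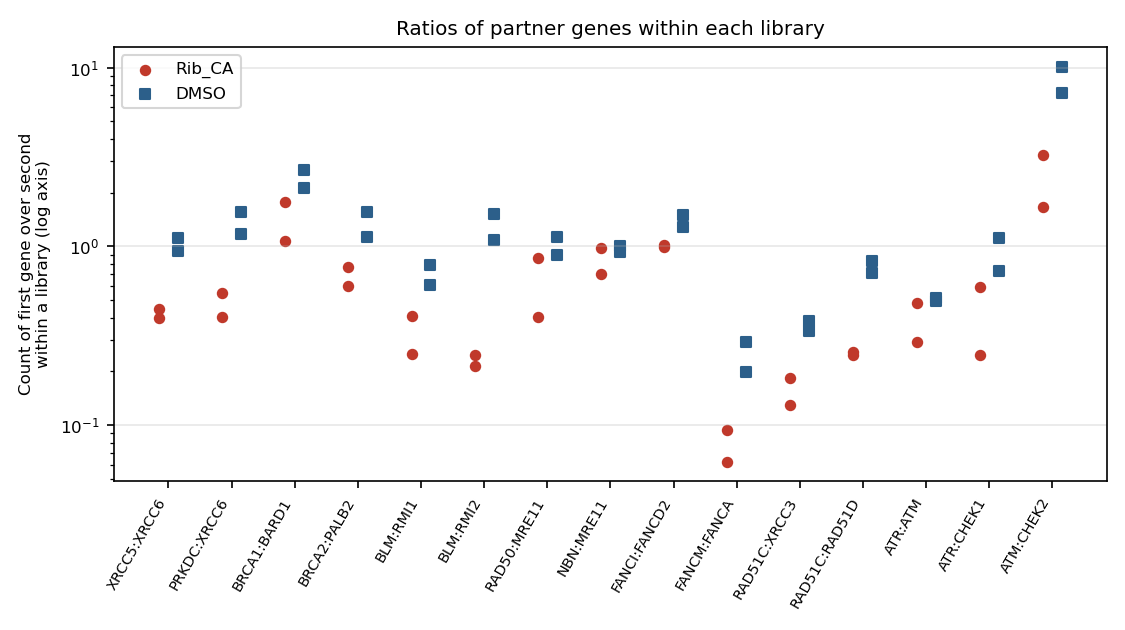
Count of the first gene over that of the second within each library (log axis) for 15 pairs of partner genes, with the 2 Rib_CA libraries as circles and the 2 DMSO libraries as squares. The Rib_CA circles lie below the DMSO squares for 14 pairs, an order that follows from which gene was put on top, and overlap for NBN:MRE11.

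Other genes of the same pathways, 71 that are not among the 49, were also tested: 11 fell and 1 rose, which is 15.5% lower against 5.11% of all genes tested, and their median log2 fold change was -0.27. CLSPN, which encodes claspin, the adaptor between ATR and CHK1, lay at 23 and 11.7 CPM in Rib_CA 1 and 2, against 82.9 and 101 CPM in DMSO 1 and 2. It was 5.29-fold lower (log2 fold change -2.40 ± 0.39 SE, adjusted p = 0.0288), and 4.001-fold to 8.09-fold lower with 1 library left out. RIF1, which acts with 53BP1 against resection, lay at 26.1 and 14.1 CPM in Rib_CA 1 and 2, against 126 and 84.7 CPM in DMSO 1 and 2. RIF1 was 5.25-fold lower (log2 fold change -2.39 ± 0.40 SE, adjusted p = 0.0293). These are the 2 of the 12 called genes that passed in all 4 fits with a library left out. ETAA1, a second activator of ATR, was 3.77-fold lower, PAXIP1, which binds 53BP1, 3.39-fold lower, and MMS22L, of stalled forks, 3.08-fold lower. The nuclease genes DCLRE1A and GEN1 were 2.82-fold lower and 2.81-fold lower. RAD51AP1 was 2.81-fold lower, FIGNL1 2.77-fold lower and MCM8 2.33-fold lower, all 3 of recombination, and USP1, which removes ubiquitin from FANCD2, 2.49-fold lower. PAXX, a small factor that binds Ku, rose 2.86-fold, with 28.6 and 27.1 CPM in Rib_CA 1 and 2, against 11.7 and 7.74 CPM in DMSO 1 and 2 (log2 fold change 1.52 ± 0.33 SE, adjusted p = 0.0443). ETAA1 and MMS22L lost their calls without DMSO 1, and PAXIP1, DCLRE1A, GEN1, RAD51AP1, FIGNL1, MCM8, USP1 and PAXX on leaving out either DMSO library. The corrected log2 fold changes were -2.03 for CLSPN, -1.73 for PAXIP1, -1.27 for ETAA1, -1.15 for RIF1, -1.03 for RAD51AP1, -0.88 for DCLRE1A, -0.86 for FIGNL1, -0.75 for USP1, -0.71 for MMS22L, -0.53 for GEN1 and -0.49 for MCM8. For GEN1, MMS22L and MCM8 that is 1.45-fold, 1.63-fold and 1.41-fold lower. It was 0.75 for PAXX, whose transcript has 66.1% GC.

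Markers of proliferation moved with the repair genes, in part: 3 of 10 fell, against 5.11% of all genes tested. MKI67, the proliferation marker, lay at 191 and 100.1 CPM in Rib_CA 1 and 2, against 1478 and 1518 CPM in DMSO 1 and 2, and was 10.3-fold lower (adjusted p = 0.0285). TOP2A, a topoisomerase of mitosis, and CCNE2, which encodes cyclin E2, also fell, the call of CCNE2 being lost without DMSO 1. They lay at 68.6 ± 17 CPM in Rib_CA against 541 ± 150.4 CPM in DMSO, and at 16.8 ± 2.17 CPM in Rib_CA against 62.9 ± 4.36 CPM in DMSO (SD, n = 2 each). CCNE2 shares 37% of its exonic bases with INTS8 on the opposite strand. The other 7 of 10 markers did not pass: the log2 fold changes were -1.22 for CCNA2, -0.90 for RRM2, -0.64 for CDK1, -0.63 for PCNA, -0.25 for CCNB1, 0.03 for E2F1 and 0.14 for MCM2. CDK1 lay at 29.8 and 95.7 CPM in Rib_CA 1 and 2, against 107 and 88.5 CPM in DMSO 1 and 2, so its Rib_CA libraries disagreed. Without Rib_CA 2, CDK1 was called lower at -1.71 (adjusted p = 0.0144), and without Rib_CA 1 it stood at -0.07. MCM2 ranged from -0.73 to 0.66 with 1 library left out. The summed level of the 10 markers was 1328 and 999.8 CPM in Rib_CA 1 and 2, against 3466 and 3235 CPM in DMSO 1 and 2. That of the 49 repair genes was 1907 and 1786 CPM, against 3799 and 3186 CPM. A few highly expressed genes weigh most in such sums. The 6 end-joining genes alone held 675 and 682 CPM in Rib_CA 1 and 2, against 1531 and 1217 CPM in DMSO 1 and 2. Without MKI67 and TOP2A, the other 8 markers summed to 1056 and 843 CPM in Rib_CA 1 and 2, against 1341 and 1283 CPM in DMSO 1 and 2. After the GC and length correction all 10 markers had a negative log2 fold change, against 48.3% of all genes, though no gene passed then. Their corrected median was -0.70, with -2.85 for MKI67, -2.20 for TOP2A, -0.49 for E2F1, -0.21 for MCM2 and -0.05 for CCNB1. The part of proliferation in the decrease of the repair genes was not tested.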

How the data were processed

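The authors deposited unnormalised counts per gene for 20263 human Ensembl IDs in 4 messenger RNA libraries. Aligner, counter, strand setting and the handling of multiply mapping reads were not given in the sources used here. Per the submitters' processing notes the builds were GRCm38 and mm10, both of mouse, although the IDs are human. Even numbers made up 67.7 to 70.7% of the values 1 to 10. Where each mate of a read pair adds its own count, totals exceed the number of fragments and the floor of 3 counts is too low; this was not settled. Symbols were found for 20148 IDs, and GENCODE release 29 gave lengths, GC contents and exon overlaps for 20224.

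The counts were tested in edgeR 4.0.16 (R 4.3.3). filterByExpr (minimum count 10, minimum total 15) kept 13667 genes, TMM factors were 1.008 and 1.14 for Rib_CA 1 and 2 and 0.997 and 0.873 for DMSO 1 and 2, and glmQLFit (robust) with glmQLFTest set Rib_CA against DMSO on 2 residual degrees of freedom, with Benjamini-Hochberg adjustment over all genes tested. The SE is the size of the log2 fold change over the root of F. Replicates differed beyond counting noise, with a chi-square of 265.3 times its degrees of freedom in Rib_CA and 256.6 times in DMSO. That value was scaled by raw totals and does not show that the libraries are independent. Each library counted as a sample in the fit. For the GC and length correction, each library's deviation of log2 CPM from the gene's mean was smoothed (mgcv 1.9.3, 6 basis functions) and used as an offset. DESeq2 1.42.0, limma-voom (limma 3.58.1) and the settings of the closing section were alternatives. The fit was run on simulated counts, where a pass was required only at a smaller spread between replicates than here and without a GC trend. Its accuracy on these data is therefore not known.

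All 49 members and every called gene of 71 other repair genes are named. Members, lists and alternatives were chosen with earlier results of these data known. The crossed pairing, the partner ratios and the classes of length, GC content and span were chosen after seeing the data. Figures were drawn with matplotlib 3.10.9.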

Additional observations from a re-analysis of the deposited data

How the results depend on the processing

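The 16 repair genes called, all lower, became 15 to 20 with DESeq2's size factors, no low-count filter, a filter of 5 CPM in 2 libraries, limma-voom, no mitochondrially encoded genes, halved counts or thinning to 34774542 counts per library. With the same fits 882 to 1324 of all genes and 9 to 13 of the 71 other repair genes were called, against 974 and 12 as reported. With total-count scaling, 8 of the 49 repair genes, 588 of all genes and 3 of the 71 others were called. In DESeq2, 26 of the 49 repair genes, 2450 of all genes and 18 of the 71 others were called. With the replicate block and the GC and length correction together, 1 of the 49 repair genes, 167 of all genes and 1 of the 71 others were called. The GC correction and the GC and length correction each left 0 calls in all 3 sets; at an unadjusted p under 0.05 edgeR then had 3604 and 3381 of all genes, against 3879 as reported. With 1 library left out, 3 to 28 repair genes, 173 to 2868 of all genes and 2 to 19 other repair genes were called, which assumes that a lone library varies as the other group's do. The median log2 fold change of the repair genes was -0.46 with the GC correction, -0.50 with the GC and length correction, -0.52 with the replicate block and that correction together, and -1.13 to -0.94 with 1 library left out, against -0.98 as reported. The replicate block alone left the same 16 repair genes lower (947 of all genes and 11 other repair genes called); over genes the differences between replicates 1 and 2 in Rib_CA and in DMSO had a correlation of -0.186, so the numbers were not taken to pair the libraries. The crossed pairing, chosen after seeing the data, called 24 repair genes, 1991 of all genes and 17 other repair genes. All 16 genes that fell kept a negative log2 fold change under all 18 alternatives. These genes were chosen as lower in the same libraries, and both Rib_CA libraries lay below both DMSO libraries for all 16. The signs with 1 library left out were thus largely fixed in advance and give no separate support. Genes whose log2 fold change turned sign under some alternative had not passed as reported. CCNB1 (-0.25 as reported) was 0.17 with the GC correction. CHEK2 (0.43 as reported) was -0.32 to 0.87 with 1 library left out. E2F1 (0.0288 as reported) was -0.49 with the replicate block with GC and length correction, -0.48 with the GC correction, -0.49 with the GC and length correction and -0.33 to 0.28 with 1 library left out. FANCG (0.28 as reported) was -0.12 with the replicate block with GC and length correction, -0.10 with the GC correction and -0.12 with the GC and length correction. FANCL (-0.57 as reported) was 0.0303 with the GC correction. MCM2 (0.14 as reported) was -0.0129 with the replicate block, -0.30 with the replicate block with GC and length correction, -0.0115 with limma-voom, -0.30 with the GC correction, -0.21 with the GC and length correction, -0.0128 with the crossed replicate block and -0.73 to 0.66 with 1 library left out. RAD51B (0.0400 as reported) was -0.30 to 0.34 with 1 library left out. RAD52 (0.20 as reported) was -0.13 to 0.44 with 1 library left out. RNF168 (-0.0955 as reported) was 0.0825 with total-count scaling, 0.36 with the replicate block with GC and length correction, 0.25 with the GC correction, 0.34 with the GC and length correction and -0.41 to 0.30 with 1 library left out. RNF8 (0.0196 as reported) was -0.00127 with DESeq2 size factors, -0.00978 with the replicate block, -0.00770 with limma-voom, -0.00935 with the crossed replicate block and -0.49 to 0.37 with 1 library left out. UBE2T (-0.33 as reported) was 0.0425 with the GC correction. XRCC3 (0.30 as reported) was -0.22 with the replicate block with GC and length correction, -0.24 with the GC correction, -0.19 with the GC and length correction and -0.38 to 0.73 with 1 library left out. XRCC6 (-0.17 as reported) was 0.0372 with total-count scaling. The cause of these turns was not tested. All 49 members passed the low-count filter, with RAD51B the lowest in DMSO. The median DMSO level was 71.3 CPM in the 16 that fell and 28.4 CPM in the 33 that did not pass. Whether level limited which members were called was not tested.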
